A study of Mus musculus with 6 samples.

Results

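Transcripts of 10 glycolysis genes were described in single cells of the mouse germinal center (GC) reaction, across B-cell states, plasma-lineage cells, T cells and myeloid cells. The members were the rows of each deposited count matrix whose gene symbol was *Slc2a1*, *Hk2*, *Aldoa*, *Tpi1*, *Gapdh*, *Pgk1*, *Pgam1*, *Eno1*, *Pkm* or *Ldha*, which made 11 of the 31053 features, since *Aldoa* is listed under a pair of Ensembl identifiers. The additional *Aldoa* feature (ENSMUSG00000114515) had no UMI in any class, where 3 UMIs over all kept cells would be 0.0239 CPM, so 10 features carried values. Splenic cells had been sorted 8 days after immunization with sheep red blood cells and profiled as 3′ single-cell RNA-seq, and the labels call all samples GC B Cells. The groups were 3 libraries with the genotype label Cgamma1-Cre WT Control (*Smc3* wt/wt) and 3 libraries with the label Cgamma1-Cre Smc3 +/- (*Smc3* wt/-). Both groups carry Cγ1-Cre, which acts in B-cells that enter the GC reaction, so any T or myeloid cells of the *Smc3* wt/- libraries are not cells in which this Cre is expected to act. The targeted allele removes exon 4 of *Smc3*, a subunit of cohesin. The labels do not give the age of the mice. The study's methods count as many sorted *Smc3* wt/- mice as there are libraries here, and more *Smc3* wt/wt mice than libraries here, without tying a mouse to a library, so p-values measure the spread between these libraries.

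Glycolysis turns glucose into pyruvate in the cytosol. Slc2a1 (GLUT1) carries glucose into the cell and hexokinase 2 (Hk2) phosphorylates it, which commits it to the cell. Aldolase A (Aldoa) cleaves fructose bisphosphate, triosephosphate isomerase (Tpi1) interconverts the resulting triose phosphates, and glyceraldehyde-3-phosphate dehydrogenase (Gapdh) oxidizes them. Phosphoglycerate kinase 1 (Pgk1) and pyruvate kinase (Pkm) make ATP, with phosphoglycerate mutase 1 (Pgam1) and enolase 1 (Eno1) between them, and lactate dehydrogenase A (Ldha) reduces pyruvate to lactate and regenerates NAD. In the GC, centroblasts (CB) divide in the dark zone and centrocytes (CC) are selected in the light zone, where help from T cells induces Myc in the cells that will recycle to the dark zone. Myc and the hypoxia-inducible factor HIF-1 are textbook activators of these genes, and both bind DNA at sites with the core ACGTG.

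The genes lie on 6 chromosomes in mm10, with *Ldha* at chr7:46841475-46855627 and *Aldoa* at chr7:126795234-126800751, *Pgk1* at chrX:106187100-106203699, *Pgam1* at chr19:41911923-41918660, *Eno1* at chr4:150236721-150248879 and *Slc2a1* at chr4:119108711-119137983, *Pkm* at chr9:59656368-59679375, and *Hk2*, *Tpi1* and *Gapdh* at chr6:82725025-82774454, chr6:124810586-124814296 and chr6:125161715-125166467 (GENCODE M21). All 10 were matched by symbol to RefSeq promoter windows of GRCm38.p6, which gave 16 windows of 250 bases before a start site. The core ACGTG, searched on both strands (CACGT on the other), was present in 8 of the 16 windows (50%) and in at least 1 window of 7 members, all but *Tpi1*, *Gapdh* and *Eno1*. Among all 32851 windows of that length, 16.6% held it. The palindrome CACGTG, the E-box bound by Myc and its partner Max, holds the core on both strands and overlaps it, and was in 1 of the 16 windows, that of *Ldha*, and in 6.0% of all windows. Some windows of *Aldoa* and of *Eno1* overlap each other, so a match can be counted in a pair of windows. The promoters of *Ldha*, *Pgk1* and *Pgam1* are shown because they differ in how often the core occurs. The members without it, *Tpi1*, *Gapdh* and *Eno1*, were also among those called in recycling-like cells. Capitals mark ACGTG on either strand, in windows at chr7:46845554-46845803, chrX:106186850-106187099 and chr19:41911621-41911870, all on the plus strand.
Ldha: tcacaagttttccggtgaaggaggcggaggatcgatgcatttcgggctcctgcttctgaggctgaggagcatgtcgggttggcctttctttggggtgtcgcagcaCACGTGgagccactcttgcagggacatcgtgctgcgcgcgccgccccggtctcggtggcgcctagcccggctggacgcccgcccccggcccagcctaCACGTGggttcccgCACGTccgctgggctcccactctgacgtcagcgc
Pgk1: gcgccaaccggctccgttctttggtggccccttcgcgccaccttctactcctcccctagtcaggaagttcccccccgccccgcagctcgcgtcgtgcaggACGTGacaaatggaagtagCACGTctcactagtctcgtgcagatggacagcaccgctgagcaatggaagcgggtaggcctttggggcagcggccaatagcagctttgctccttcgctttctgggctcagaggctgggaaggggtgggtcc
Pgam1: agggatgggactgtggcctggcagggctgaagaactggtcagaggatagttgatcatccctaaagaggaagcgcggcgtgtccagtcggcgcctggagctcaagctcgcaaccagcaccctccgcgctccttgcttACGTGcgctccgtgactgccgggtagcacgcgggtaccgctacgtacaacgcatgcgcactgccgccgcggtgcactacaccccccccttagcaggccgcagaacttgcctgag
The *Ldha* window held 5 matches of the core, in 2 E-boxes and 1 single match, and lies before the start of the other annotated transcripts but within the span of the longest one. In the *Pgk1* window there were 2 matches, and in that of *Pgam1* there was 1. A match describes these letters only.

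The files held 22939 barcodes and 156055938 UMIs, of which 20809 cells were kept. Libraries ranged from 5223325 to 35354257 UMIs, and *Smc3* wt/wt replicate 1 and *Smc3* wt/- replicate 1 were the shallowest. Of 20566 distinct barcode sequences, 241 occurred in at least 2 libraries. Cells were grouped without the 10 members and without 48 other pathway genes, and named from marker genes as naive or memory B-like, CC-like, CB-like, S-phase GC B-like (GC cells that copy DNA), recycling-like (markers *Myc* and its ribosome-building targets), plasmablast-like (PB), plasma cell-like (PC), T cell-like and myeloid-like. The labels name only GC B Cells, so the T cell-like and myeloid-like cells go beyond them. A cluster of 3556 cells led by haemoglobin genes, with the B-cell gene *Cd79a* at 2310.4 CPM and 5 CC markers up, stayed unnamed and is not described. *Myc* itself was among the 10 leading genes of the CC-like and not of the recycling-like cluster, and the CC-like cluster, the reference of the class contrasts, had 10 recycling and 9 CC markers up. Markers of cycling were present in it too, with 7 S-phase markers up and *Mki67* at 165.4 CPM. *Mki67* was at 71.6 to 244.3 CPM in the S-phase GC B-like clusters and at 32.1 CPM in the unnamed one. CC-like cells are thus not a resting reference. The recycling-like cluster had 12 recycling and 12 S-phase markers up. *Smc3* wt/- replicate 2 stood apart before any comparison, with 51.9% of its UMIs from immunoglobulin genes, which gave 2.37 to 3.90% elsewhere. PC-like cells were 37.0% and myeloid-like cells 17.9% of that library, against 0.326 to 1.09% and 0.443 to 1.29% elsewhere, so member results that change without it are given both ways. For other pathway genes, calls lost or gained without it are counted, with examples. Levels are given in CPM, the depth-scaled count of a gene among the UMIs that are not immunoglobulin, summed over the cells of a class in a library, with the mean ± SD of 6 libraries. Reads were counted at the 3′ end, so levels of different genes are not ranked against each other.

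The 10 transcripts together were a larger share of the RNA of recycling-like cells than of any other class. They made up 0.838% ± 0.0526 (SD, n = 6) of non-immunoglobulin UMIs there, with libraries from 0.761 to 0.907%. Each of these libraries lay above every library of every other class, the highest of which was a PB-like sum at 0.687%. PB-like cells followed with 0.580% ± 0.155, S-phase GC B-like cells with 0.539% ± 0.0105, CB-like cells with 0.470% ± 0.0325 and CC-like cells with 0.467% ± 0.0452. Naive or memory B-like cells had 0.308% ± 0.0717, T cell-like cells 0.381% ± 0.0620, myeloid-like cells 0.245% ± 0.0561 and PC-like cells 0.146% ± 0.0381. The spread of the PB-like class came from 1 library, *Smc3* wt/- replicate 2 at 0.275%, while the other 5 lay between 0.571 and 0.687%. Recycling-like cells were also deeper than CC-like cells, with medians of 13094 to 23241 UMIs per cell against 3693 to 6332. Cells with at least 2000 UMIs were thinned to that number and shallower cells left out, which kept all recycling-like cells and 75 to 354 CC-like cells per library, and the mean shares were 0.822% and 0.451%. PB-like cells then had 0.509% and S-phase GC B-like cells 0.496%, while CB-like cells, at 0.412%, fell below CC-like cells. Thinning kept only 10 to 57 of the 56 to 139 T cell-like cells and 2 to 473 of the 13 to 637 myeloid-like cells per library, so those classes are not placed in this order.

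**Figure D1:**
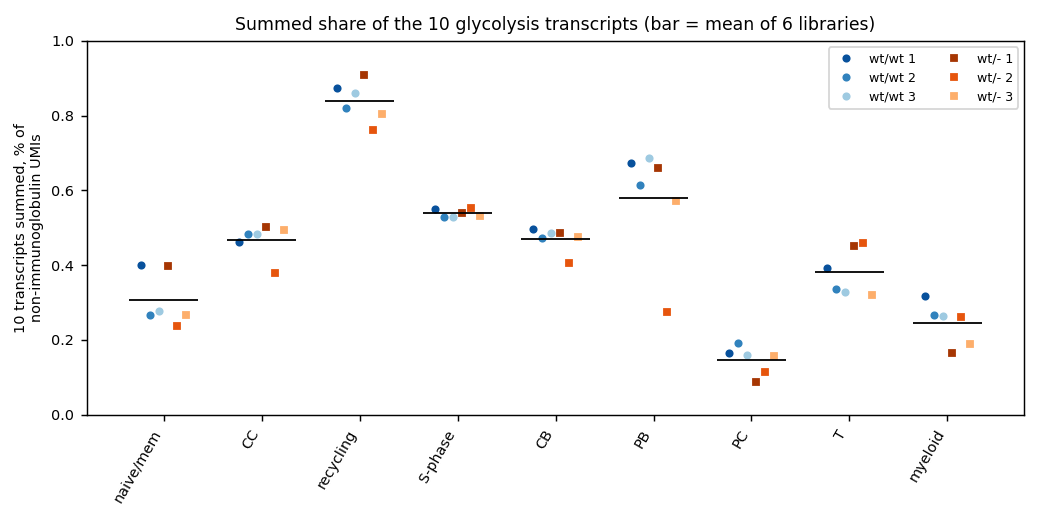
The summed share of the 10 glycolysis transcripts, as a percent of non-immunoglobulin UMIs on a linear axis from 0, is plotted for 9 cell classes, with 1 point per library (circles *Smc3* wt/wt, squares *Smc3* wt/-) and a bar at the mean of 6 libraries. The 6 recycling-like points lie between 0.761 and 0.907%, above all points of the other classes, and PC-like points average 0.146%.

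At the entry of the pathway, neighbouring classes in the order of levels overlapped throughout for both *Hk2* and *Slc2a1*. Mean *Hk2* ran from 3.64 to 30.5 CPM. In CC-like cells *Hk2* stood at 18.3, 18.8 and 18.5 CPM (wt/wt) and 12.5, 17.1 and 12.8 CPM (wt/-). In recycling-like cells it reached 36.3, 28.4 and 33.2 CPM (wt/wt) and 23.2, 38.7 and 22.9 CPM (wt/-), and every library was above its own CC-like value. S-phase GC B-like and CB-like cells were lower, at 7.29 ± 2.43 CPM and 5.64 ± 1.07 CPM. PB-like cells had 24.7, 34.0 and 43.0 CPM (wt/wt) and 25.1, 23.7 and 21.4 CPM (wt/-), so the recycling-like and PB-like ranges overlapped. The precision of *Hk2* was limited by few molecules, with 6 to 38 UMIs per CC-like sum. In T cell-like cells only 6 UMIs were seen in all, with 0 in 4 libraries, where a count of 0 allows up to 17.0 to 23.7 CPM. *Slc2a1* had its highest mean in naive or memory B-like cells, at 6.52, 25.6 and 22.6 CPM (wt/wt) and 19.2, 17.8 and 22.6 CPM (wt/-). Replicate 1 of *Smc3* wt/wt, with 2 UMIs, was the low value and the other 5 libraries had 12 to 31 UMIs. The means of the T cell-like, recycling-like, CC-like and PB-like classes lay between 11.9 and 13.1 CPM. CB-like cells stood at 8.73 ± 1.22 CPM. In myeloid-like cells 4 libraries had no *Slc2a1* UMI, which allows up to 37.0 to 173 CPM, so its place there cannot be given.

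The enzymes of the middle of the pathway were highest in recycling-like cells. *Tpi1* was at 385, 549 and 560.2 CPM (wt/wt) and 431, 420.1 and 517 CPM (wt/-) there and at 183, 298 and 274 against 223, 173 and 286 CPM in CC-like cells (wt/wt against wt/-), with no overlap. For *Gapdh* the recycling-like values were 1575, 2097 and 2361 CPM (wt/wt) and 1689, 2118 and 2050.0 CPM (wt/-). CC-like cells had 749, 1278 and 1378 against 912, 1086 and 1261 CPM, so each recycling-like library again exceeded all CC-like libraries. S-phase GC B-like and CB-like cells came between, at 1617 ± 252 CPM and 1499 ± 233 CPM. *Aldoa* varied less by class, from 1072 ± 255 CPM in recycling-like to 340.1 ± 129 CPM in PC-like cells. Its recycling-like values, 1303, 961 and 1015 against 1439.8, 736 and 977 CPM, lay above the CC-like value in every library but overlapped the CC-like range of 447 to 971 CPM.

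Among the enzymes that lead to pyruvate, *Pgam1* had the cleanest step. Recycling-like cells held 564, 522 and 546 CPM (wt/wt) and 509, 483 and 535 CPM (wt/-), and CC-like cells 217, 254 and 273 against 265, 222 and 279 CPM. The lowest recycling-like library was thus above each library of the other classes, of which a PB-like sum at 330.1 CPM was the highest. *Pgk1* ran from 446 ± 32.7 CPM in recycling-like cells through 398 ± 72.9 CPM in PB-like cells to 93.2 ± 45.6 CPM in PC-like cells, and the recycling-like and PB-like ranges overlapped. *Pkm* was at 1468, 1240.0 and 1221 CPM (wt/wt) and 1703, 1179.8 and 1236 CPM (wt/-) in recycling-like cells and at 667, 633 and 658 against 844, 563 and 653 CPM in CC-like cells. In PB-like cells it reached 1538, 1149 and 1290.3 against 1568, 459 and 1165 CPM, where *Smc3* wt/- replicate 2 was the low value. *Eno1* differed more between libraries than between most classes: in CC-like cells it was at 535, 278 and 222 CPM (wt/wt) and 469, 259 and 272 CPM (wt/-), and in recycling-like cells at 1156, 494 and 433 against 983, 530.3 and 516 CPM. Both replicates numbered 1 were high in either class, and within every library the recycling-like value was the higher one.

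*Ldha*, at the end of the pathway, set recycling-like cells apart from all others. Their libraries held 1817, 1865 and 1959 CPM (wt/wt) and 1855, 1597 and 1752 CPM (wt/-), and the highest value in any other class was 1189.7 CPM in PB-like cells. CC-like cells came next by mean, at 1131, 1068 and 1042 CPM (wt/wt) and 1049, 754 and 1126 CPM (wt/-). By mean, *Ldha* was higher in CC-like cells than in S-phase GC B-like cells, at 835 ± 35.5 CPM, and CB-like cells, at 669 ± 68.4 CPM. Naive or memory B-like cells had 402 ± 114 CPM, T cell-like cells 748 ± 164 CPM and myeloid-like cells 372 ± 98.8 CPM. PB-like cells held 1016, 1019.9 and 1189.7 CPM (wt/wt) and 1088, 251 and 882 CPM (wt/-), so that *Smc3* wt/- replicate 2 was far below the other 5. PC-like cells were the lowest, at 79.7, 213 and 185 against 113, 76.7 and 255 CPM, and did not overlap PB-like cells apart from that library.

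**Figure D2:**
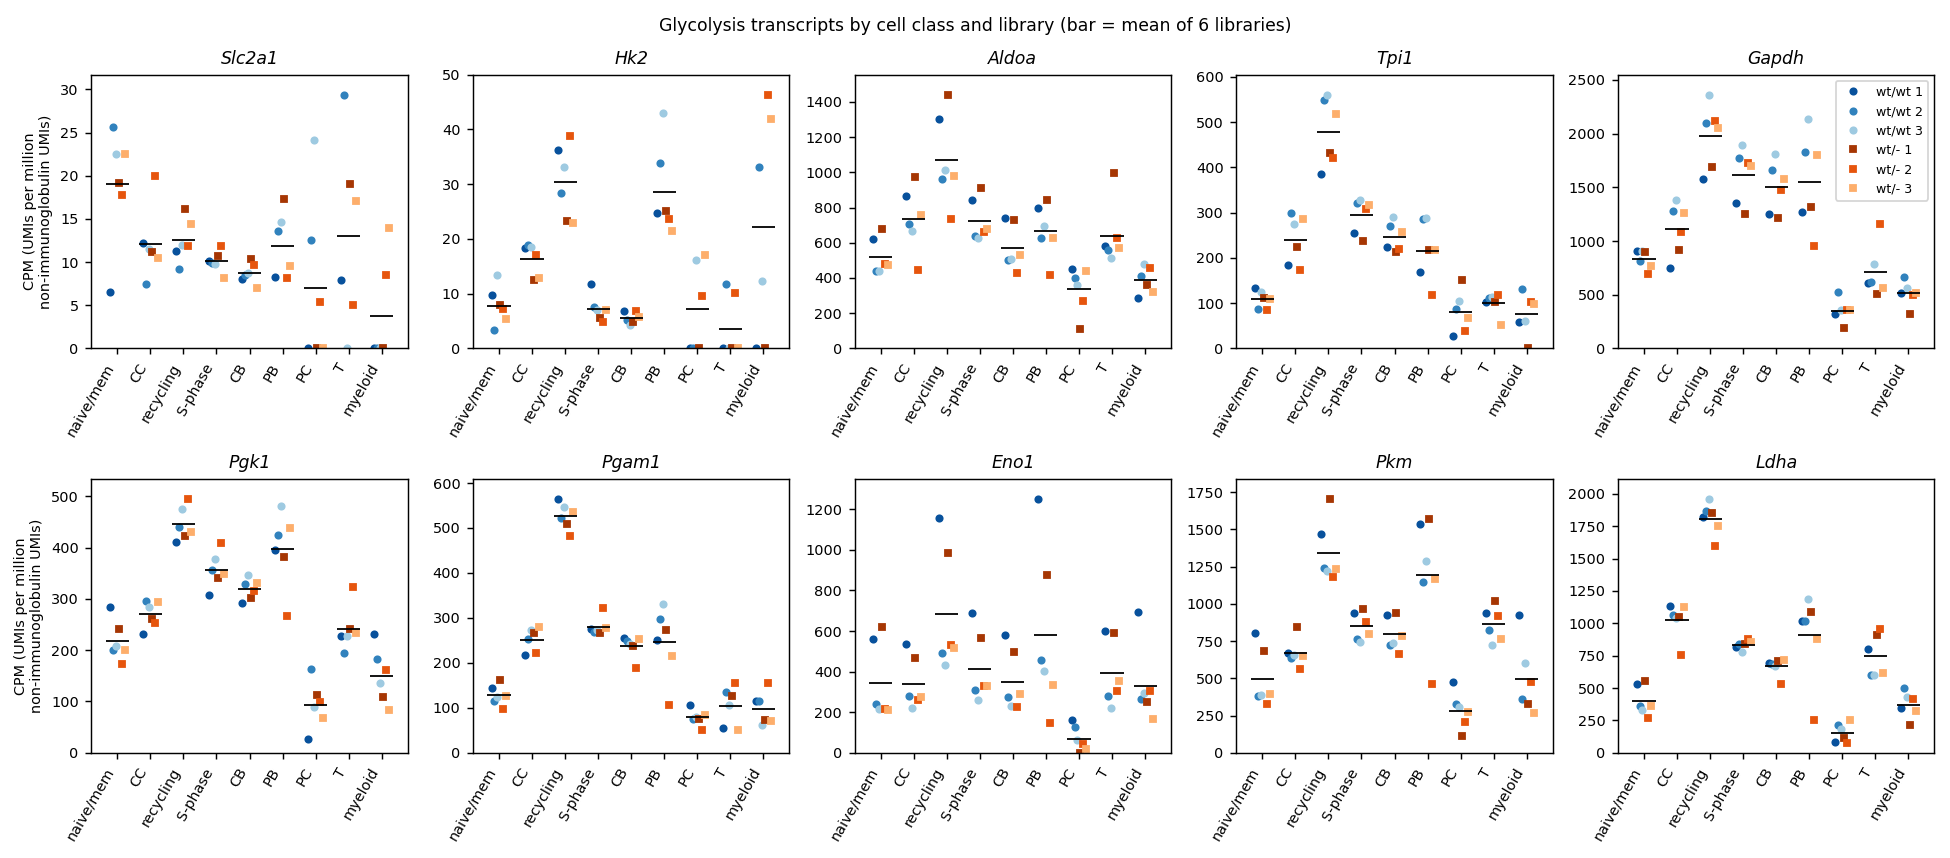
Each panel plots 1 gene in CPM of non-immunoglobulin UMIs (linear axes from 0) against 9 cell classes, with 1 point per library and a bar at the mean of 6 libraries. Recycling-like cells have the highest mean for 9 genes, all but *Slc2a1*, and the PC-like points are the lowest mean for *Aldoa*, *Gapdh*, *Pgk1*, *Pgam1*, *Eno1*, *Pkm* and *Ldha*.

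Class differences were tested with edgeR's quasi-likelihood test on UMIs summed per class and library, with library as a block, each class against CC-like cells and with Benjamini-Hochberg adjustment over all genes tested. Values are log2 fold changes, and a gene was called at an adjusted p under 0.05. Shares of all genes called are those over all 6 libraries. In recycling-like cells 9 of the 10 members rose and none fell, where 22.7% of the 8725 genes tested were called higher and 20.9% lower. The median of the members was 0.90, against 0.0045 for all genes. Pgam1 led with 1.12 ± 0.18 (SE, adjusted p = 1.33e-06), followed by Pkm with 1.05 ± 0.17 (SE, adjusted p = 1.82e-06), Tpi1 with 1.05 ± 0.16 (SE, adjusted p = 7.68e-07) and Eno1 with 1.05 ± 0.19 (SE, adjusted p = 1.89e-05). Gapdh rose by 0.90, Hk2 by 0.90, Ldha by 0.88, Pgk1 by 0.77 and Aldoa by 0.60. Slc2a1, at 0.30 ± 0.23 (SE, adjusted p = 0.306), did not pass. These 9 genes were higher in 6 of 6 libraries, and for 7 of them the 2 classes did not overlap. The share of all genes without overlap was not computed for the class contrasts, so such counts are a description only. Without *Smc3* wt/- replicate 2 the same 9 were called, with values from 0.61 for Aldoa to 1.11 for Pgam1.

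S-phase GC B-like and CB-like cells differed from CC-like cells in 3 and 4 called members over all 6 libraries. In S-phase GC B-like cells Gapdh at 0.55 ± 0.15 (SE, adjusted p = 0.00413) and Pgk1 at 0.39 ± 0.13 (SE, adjusted p = 0.022) rose, and Hk2 fell at -1.17 ± 0.22 (SE, adjusted p = 7.10e-05), where 12.4% of genes were called higher and 14% lower. In CB-like cells Gapdh rose at 0.46 ± 0.15 (SE, adjusted p = 0.0122), while Hk2 at -1.59 ± 0.23 (SE, adjusted p = 1.52e-07), Ldha at -0.60 ± 0.21 (SE, adjusted p = 0.0193) and Aldoa at -0.34 ± 0.14 (SE, adjusted p = 0.0477) fell, beside 17.4% and 17% of genes. Hk2 had the largest of these differences and was lower in S-phase GC B-like cells in 6 of 6 libraries. Gapdh and Pgk1 were higher in 6 of 6 libraries in both states, and Pgk1 did not overlap in S-phase GC B-like cells. The calls of the rises depended on the fit and on the libraries. With no library block all were lost, at 0.54 for Gapdh and 0.39 for Pgk1 in S-phase and 0.45 for Gapdh in CB-like cells, and the last also with doublets kept (0.29). Without *Smc3* wt/wt replicate 1 neither state had a member called higher, the S-phase values being 0.46 for Gapdh and 0.36 for Pgk1 and the CB value 0.34 for Gapdh. Pgk1 also lost its S-phase call without *Smc3* wt/wt replicate 2 (0.38) or 3 (0.35), and Gapdh its CB call without replicate 2 (0.40) or 3 (0.39). The fall of Aldoa in CB-like cells was lost without *Smc3* wt/wt replicate 2 (-0.39) or 3 (-0.42) and without *Smc3* wt/- replicate 1 (-0.35) or 3 (-0.31), as well as with no low-count filter (-0.28), immunoglobulin genes kept (-0.30) or no library block (-0.34), and that of Ldha without *Smc3* wt/- replicate 3 (-0.59). Leaving out *Smc3* wt/- replicate 2 instead narrowed the errors and gave 5 members higher and 2 lower in S-phase GC B-like cells, with Eno1 at 0.23 ± 0.06, Pkm at 0.25 ± 0.07, Tpi1 at 0.16 ± 0.06 and Ldha at -0.40 ± 0.07 added. In CB-like cells Pkm at 0.24 ± 0.07 and Pgk1 at 0.22 ± 0.05 were then added, for 3 higher and 3 lower. Over all genes, leaving out 1 library in turn gave 1490 to 3712 calls in the S-phase contrast. The shares above are for all 6 libraries, so counts without a library are not set against them.

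Naive or memory B-like cells were lower than CC-like cells in 5 members and higher in 1. Ldha fell at -1.27 ± 0.21 (SE, adjusted p = 2.80e-06), Tpi1 at -1.06 ± 0.17 (SE, adjusted p = 1.88e-06), Hk2 at -1.01 ± 0.30 (SE, adjusted p = 0.0047), Pgam1 at -0.89 ± 0.19 (SE, adjusted p = 1.15e-04) and Aldoa at -0.38 ± 0.14 (SE, adjusted p = 0.0242). The glucose transporter Slc2a1 went the other way, at 1.10 ± 0.23 (SE, adjusted p = 1.30e-04). Across all genes, 23.2% were called higher and 24.3% lower, so these counts are read against a broad difference between the classes. Without *Smc3* wt/- replicate 2, 8 members were lower, with Pkm at -0.37 ± 0.08, Gapdh at -0.28 ± 0.08 and Pgk1 at -0.25 ± 0.07 added, and Slc2a1 at 1.24 ± 0.23. The share of all genes called in that fit is not given. Without *Smc3* wt/wt replicate 2, 3 remained lower, and the lost calls were those of Hk2 (-0.79) and Aldoa (-0.38). The call of Aldoa was also lost without *Smc3* wt/wt replicate 3 (-0.40) and without *Smc3* wt/- replicate 1 (-0.28) or 3 (-0.34), with immunoglobulin genes kept (-0.32) and with no library block (-0.38).

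The plasma lineage held the widest contrast. The PB-like cluster had *Mki67* at 151.4 CPM and the PC-like cluster at 4.3 CPM. PB-like cells were higher than PC-like cells in 9 of 10 members, where 21.3% of 8689 genes were called higher and 14.5% lower. Eno1 differed by 2.52 ± 0.26 (SE, adjusted p = 1.12e-11) and Ldha by 2.45 ± 0.25 (SE, adjusted p = 8.84e-12), followed by Gapdh with 1.91 ± 0.17 (SE, adjusted p = 1.56e-13) and Pkm with 1.83 ± 0.20 (SE, adjusted p = 6.56e-11). Pgk1 at 1.64, Pgam1 at 1.497, Tpi1 at 1.496, Hk2 at 1.11 and Aldoa at 0.68 passed as well, and Slc2a1 at 0.32 ± 0.36 (SE, adjusted p = 0.524) did not. These 9 were higher in PB-like cells in 6 of 6 libraries. For Hk2, 3 PC-like sums held no UMI, which allows up to 37.6 to 113 CPM, more than the PB-like level of these libraries. The PC-like sums of the 5 other libraries came from 10 to 24 cells, against 1316 cells in *Smc3* wt/- replicate 2, and without that library the same 9 were called, with Eno1 at 2.95 ± 0.28 and Ldha at 2.60 ± 0.20. The median of all genes then went from 0.04 to 0.55 and that of the members from 1.57 to 2.06. The value of Hk2 then rests on 3 PC-like UMIs. Aldoa lost its call with the size factors of DESeq2, at 0.24.

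Set against CC-like cells, the split showed both directions. PB-like cells rose in Hk2 at 0.999 ± 0.21 (SE, adjusted p = 5.13e-05), Pkm at 0.98 ± 0.16 (SE, adjusted p = 7.07e-07), Eno1 at 0.80 ± 0.17 (SE, adjusted p = 7.03e-05), Pgk1 at 0.72 ± 0.13 (SE, adjusted p = 2.09e-06) and Gapdh at 0.66 ± 0.14 (SE, adjusted p = 6.07e-05), where 25.5% of genes were called higher and 27% lower. Ldha at -0.04 and Tpi1 at -0.0025 did not pass. PC-like cells fell in 8 members, where 24.6% of genes were called higher and 32.9% lower and the median of all genes was -0.14. Ldha fell by 2.49 on the log2 scale, and Eno1 at -1.73 ± 0.26 (SE, adjusted p = 7.83e-08), Tpi1 at -1.499 ± 0.21 (SE, adjusted p = 2.15e-08), Pgam1 at -1.39 ± 0.24 (SE, adjusted p = 1.35e-06) and Gapdh at -1.25 ± 0.17 (SE, adjusted p = 6.10e-09) came next. Pgk1 at -0.92, Pkm at -0.85 and Aldoa at -0.65 were also called, while Hk2 at -0.11 and Slc2a1 at 0.03 were not. For each of the 8 the PC-like value was lower in 6 of 6 libraries, with no overlap for 7, again with no share of all genes to set beside it. The same 8 were called without *Smc3* wt/- replicate 2, with Ldha at -2.44 ± 0.20, where the median of all genes was -0.62. Taken as 1 class, the plasma-lineage cells had 5 members higher, Pkm at 0.88, Hk2 at 0.82, Eno1 at 0.67, Pgk1 at 0.59 and Gapdh at 0.54, beside 26.5% of genes higher and 26.8% lower. Without *Smc3* wt/- replicate 2, which is mostly PC-like in this lineage, all 10 were positive, the member median went from 0.42 to 0.63 and Pgam1 at 0.20 ± 0.07 was called as well. The same member was added in PB-like over CC-like cells, at 0.30 ± 0.08, for 6 called.

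T cell-like cells were lower than CC-like cells in Tpi1 at -1.26 ± 0.22 (SE, adjusted p = 4.16e-06), Pgam1 at -1.22 ± 0.23 (SE, adjusted p = 2.71e-05), Gapdh at -0.67 ± 0.16 (SE, adjusted p = 5.13e-04) and Hk2 at -1.71 ± 0.57 (SE, adjusted p = 0.0142), and higher in none, where 18.4% of genes were called higher and 22.3% lower. The value of Hk2 rests on 6 UMIs. With doublets kept the calls of Hk2 (-1.11) and Gapdh (-0.35) were lost, and the member median was -0.10 in place of -0.36. Pkm at 0.33 ± 0.18 (SE, adjusted p = 0.136) did not pass, but was called higher with the size factors of DESeq2. Without *Smc3* wt/- replicate 2 there were 7 members lower, with Ldha at -0.68 ± 0.10, Pgk1 at -0.36 ± 0.12 and Aldoa at -0.36 ± 0.09 added. Hk2 was among them at -2.68 ± 0.77, on 2 UMIs in 1 library. The share of all genes called in that fit is not given either. Myeloid-like cells fell in 7 members, led by Ldha at -1.30 ± 0.25 (SE, adjusted p = 1.90e-05), Gapdh at -1.17 ± 0.18 (SE, adjusted p = 2.99e-07) and Tpi1 at -1.12 ± 0.23 (SE, adjusted p = 8.88e-05), beside 20.3% of genes higher and 29.3% lower and a median of all genes of -0.21. Pgam1 at -0.85, Pgk1 at -0.78, Aldoa at -0.73 and Pkm at -0.49 were the others. The call of Pkm was lost without *Smc3* wt/wt replicate 2 (-0.51) and without *Smc3* wt/- replicate 1 (-0.30) or 3 (-0.36), with DESeq2 (-0.27) or its size factors in edgeR (-0.24), and with immunoglobulin genes kept (-0.41). Hk2 rose at 1.56 ± 0.31 (SE, adjusted p = 4.49e-05), a call that needed *Smc3* wt/- replicate 2, which held 92 of the 98 UMIs. Without that library Hk2 stood at 0.26 ± 0.66. The same 7 members were then lower, from -0.83 for Pkm to -1.96 for Tpi1, with Ldha at -1.71 ± 0.17, and the member median went from -0.75 to -1.32 while that of all genes went from -0.21 to -0.51. In *Smc3* wt/- replicate 2, 496 of its 637 myeloid-like cells came from 1 of the 4 myeloid-like clusters.

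**Figure D3:**
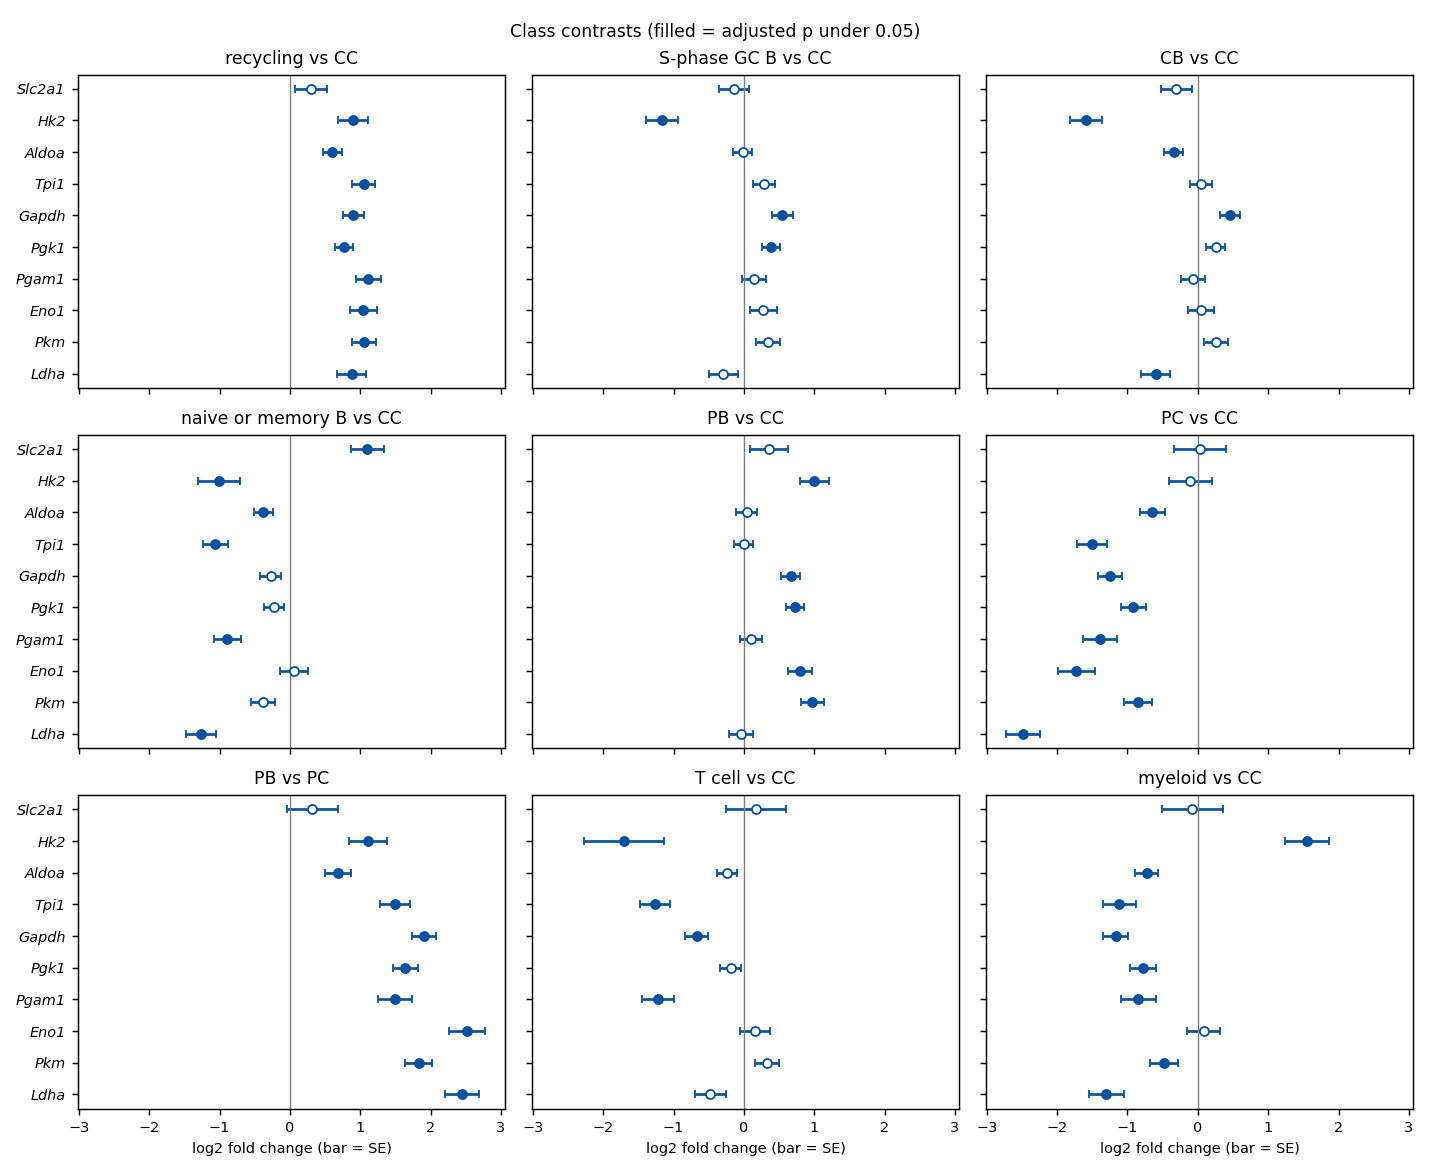
Log2 fold changes of the 10 genes, with bars of 1 SE, are plotted for 9 class contrasts, and filled points have an adjusted p under 0.05. Against CC-like cells the recycling-like points are all to the right of 0 with 9 filled, and the PC-like panel has 8 filled points to the left, from -0.65 for Aldoa to -2.49 for Ldha.

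The other genes of the pathway did not all follow the members, and their counts are read against the shares of all genes called in each contrast, 22.7% higher and 20.9% lower in recycling-like cells. Of 20 other glycolysis genes, 11 were tested, and in recycling-like cells 1 rose, the phosphofructokinase Pfkl at 0.64, while the aldolase Aldoc at -3.16 and Bpgm at -0.73 fell. Of 14 genes that handle pyruvate and lactate, 11 were tested and 7 rose with none falling, led by the lactate carriers Slc16a3 at 1.84 and Slc16a1 at 0.92. Slc16a3 was sparse, at 2.16 ± 1.41 CPM against 0.530 ± 0.660 CPM. Among 10 tested regulators none rose and 2 fell: Pfkfb4 at -2.23, and Txnip, which restrains glucose uptake, at -1.51. In levels Txnip was at 4.35 ± 2.93 CPM in recycling-like cells, 17.0 ± 4.01 CPM in CC-like cells and 61.0 ± 7.05 CPM in naive or memory B-like cells. Without *Smc3* wt/- replicate 2 the 12 calls of these lists in recycling-like cells became 16. Gpi1 at 0.30 and Mpc1 at 0.31 were then added as higher, and Adpgk at -0.40 and Max at -0.19 as lower.

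In S-phase GC B-like cells none of these genes rose, and Aldoc at -0.99, the ADP-dependent glucokinase Adpgk at -0.73 and Slc16a1 at -0.72 fell. Without *Smc3* wt/- replicate 2 these 3 calls became 9. Gpi1 at 0.12, Mpc2 at 0.175 and Hif1a at 0.25 were then called higher. Pfkp at -0.44, Dlat at -0.29 and Max at -0.30 were added as lower. CB-like cells fell in 4 other glycolysis genes, first Aldoc at -2.12 and Adpgk at -1.11, and in Slc16a1 at -0.97, and rose in Pdhb at 0.28, a subunit of pyruvate dehydrogenase. Without *Smc3* wt/- replicate 2 the 6 calls in CB-like cells became 11. Bpgm at 0.32 and Txnip at 0.49 were then added as higher, and Slc2a3 at -0.72, Pdk1 at -0.50 and Max at -0.24 as lower. Naive or memory B-like cells rose in the transporter Slc2a3 at 1.35 and the hexokinase Hk1 at 0.89, and fell in Pfkp at -1.45 and Bpgm at -0.90. They also rose in 3 and fell in 4 genes of pyruvate and lactate handling, with Pdk1 at 0.78 and Mpc1 at 0.54 against Slc16a1 at -1.96 and Pdk3 at -0.91, and rose in 4 regulators, first Txnip at 1.998 and Pfkfb4 at 1.74.

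In PB-like cells Bsg at 2.04, a chaperone of the lactate carriers, and the pyruvate carrier subunit Mpc2 at 1.07 were the largest of 5 rises among pyruvate and lactate genes, of which none fell. Among other glycolysis genes Bpgm at 1.04 rose and 3 fell, first Aldoc at -2.004 and Adpgk at -0.81. Of 8 tested regulators 3 fell, Pfkfb4 at -3.16, Max at -1.55 and Hif1a at -1.48. PC-like cells kept Bsg high at 2.16 and rose in Pdk1 at 1.12, which inhibits pyruvate dehydrogenase, in Txnip at 2.48 and Bnip3 at 1.17, and in Bpgm at 1.24 and Hk1 at 0.65. They fell in Slc16a1 at -1.71, Pdha1 at -1.07, Gpi1 at -1.19, Pfkp at -0.67, Hif1a at -1.41 and Max at -1.27. Against PC-like cells directly, PB-like cells were higher in Slc16a1 at 1.77, Pdha1 at 1.36, Pfkp at 0.96 and Gpi1 at 0.81, and lower in Aldoc at -1.503, Pdk1 at -0.99, Pfkfb4 at -3.29 and Bnip3 at -2.17. Over the whole lineage 2 other glycolysis genes rose and 3 fell, with Bpgm at 1.09, Hk1 at 0.45, Aldoc at -1.35 and Adpgk at -0.76. There Bsg at 2.12 and Mpc2 at 1.09 led 5 rises of pyruvate and lactate genes, and of the regulators Txnip at 1.23 rose and Max at -1.44 and Hif1a at -1.43 fell. Egln3 had 24 UMIs there against 1 in CC-like cells. Several of these values changed without *Smc3* wt/- replicate 2, which held all 17 PC-like UMIs of Slc16a1. In PC-like cells Pdk1 turned to -0.54, Bnip3 went to 0.44, Bpgm to 0.43 and Hk1 to 0.56, and all 4 lost their call, while Pfkp at -1.52, Pdha1 at -1.77 and Hif1a at -2.15 fell further. In PB-like over PC-like cells the calls of Pdk1 (then 0.78) and Bnip3 (-1.70) were lost, with Pfkp at 1.84, Pdha1 at 2.14 and Aldoc at -2.92. Over the whole lineage those of Txnip (0.54) and Hk1 (0.32) were lost, with Aldoc at -2.48, which stood at -3.17 in PB-like over CC-like cells. Pfkfb4 was then too low to be tested in PB-like or PC-like cells. Calls were gained as well. In PB-like over CC-like cells the 12 calls became 15, with 4 gained, among them Pfkp at 0.32. In PC-like over CC-like cells 3 were gained, and in PB-like over PC-like cells 2. Over the whole lineage Pfkp at 0.23 and Vhl at -0.85 were gained.

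Outside the B lineage other isoenzymes appeared. Ldhb, the other lactate dehydrogenase subunit, was at 72.8 ± 40.9 CPM in T cell-like and 41.4 ± 44.4 CPM in myeloid-like cells, and had no UMI in CC-like cells, where 3 UMIs over the 6 libraries would be 0.395 CPM. Ldhb, Egln3 and Hk3 had at most 1 UMI in CC-like cells and passed the filter on low counts through the classes where they are high, so their calls are a description only. Of the other glycolysis genes called higher in T cell-like cells the enolase Eno3 rested on 15 UMIs over the 6 libraries, with a mean of 14.0 CPM against 1.96 ± 2.59 CPM in CC-like cells. T cell-like cells also rose in Pdk1 at 2.35, Slc16a3 at 3.76 and Txnip at 2.24, and fell in Pdk3 at -0.71. Egln3 had 37 UMIs there against 1 in CC-like cells. Slc16a3 was sparse in CC-like cells, so its values in T cell-like and myeloid-like cells are a description only. Myeloid-like cells rose in 6 other glycolysis genes, led by Ldhb and the hexokinase Hk3 at 45.3 ± 37.0 CPM against 0.210 ± 0.510 CPM, and fell in Bpgm at -1.32. Slc16a3 at 5.35 and Mpc2 at 0.80 rose there. Slc16a1 had no UMI in myeloid-like cells, which allows up to 1.34 CPM over the 6 libraries, against 20.8 ± 5.73 CPM in CC-like cells, and Dld fell at -0.62. Of the regulators Pfkfb4 at 3.48 and Txnip at 2.63 rose most. In myeloid-like cells 8 of the 16 calls on other pathway genes were lost without *Smc3* wt/- replicate 2, among them Bpgm (-0.89), Mpc2 (0.47) and Adpgk (0.03), Hk3 was too low to be tested, and Dld stood at -1.69. Leaving that library out ended none of these calls in T cell-like, CB-like, S-phase or recycling-like cells, where 2, 5, 6 and 4 calls were gained. In naive or memory B-like cells the calls of Hif1a (0.28) and Arnt (0.65) were lost and 2 were gained. In myeloid-like cells 3 were gained.

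Over the 54 sums of 9 classes and 6 libraries, with library means removed, the members varied together to different degrees. Pearson's r between 1 member and the mean of the others was 0.925 for *Ldha*, 0.905 for *Gapdh*, 0.869 for *Pkm*, 0.861 for *Pgam1*, 0.858 for *Pgk1*, 0.854 for *Aldoa*, 0.792 for *Tpi1* and 0.783 for *Eno1*. The entry steps were less alike, with 0.454 for *Hk2* and 0.378 for *Slc2a1*, and the lowest pair was these 2 genes at 0.206. Both had few UMIs, with none in some PC-like, T cell-like and myeloid-like sums, so counting error weighs more on their r. How far it lowered these values was not tested. The sums of a library share its depth and those of a class share its composition, so these values describe the 54 points only. Of 5264 other genes with at least 20 CPM on average, those most like the mean of the members were *Hsp90ab1* (r = 0.939), *Atp5b* (0.936), *Tomm40* (0.936), *Rpl5* (0.935), *Cct5* (0.935), *Serbp1* (0.935), *Slc25a5* (0.932), *Ybx1* (0.932), *Ran* (0.932) and *Snrpa1* (0.931). There were 40 genes with r above 0.9, so other genes shared this pattern.

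Replicates numbered 1 differed from the other libraries in some members in most classes. For *Eno1* both *Smc3* wt/wt replicate 1 and *Smc3* wt/- replicate 1 lay above the other 4 libraries in 7 of 9 classes, and in CB-like cells the values were 578, 274 and 229 against 497, 226 and 288 CPM. The same was found for *Pkm* in 7 classes and for *Aldoa* in 6, but not in PC-like or myeloid-like cells, where the mean *Aldoa* level of the 2 libraries was 0.765 and 0.777 times that of the other 4. *Gapdh* lay below the other 4 in 5 classes, with 1251, 1662 and 1811 against 1217, 1478 and 1575 CPM in CB-like cells. In S-phase GC B-like cells the mean *Eno1* level of the 2 libraries was 2.04 times that of the other 4. The whole transcriptome shared this, as 37.7% of genes of at least 20 CPM in CB-like cells had both libraries above the other 4 and 9.84% had both below. These were the shallowest libraries, 1 of each genotype, and the labels name no batch. What set them apart was not tested. *Eno1b*, a near copy of *Eno1*, was counted apart and reached at most 11.3 CPM in a class sum. How reads that fit both genes were assigned was not examined, so this count says nothing about the *Eno1* difference.

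**Figure D4:**
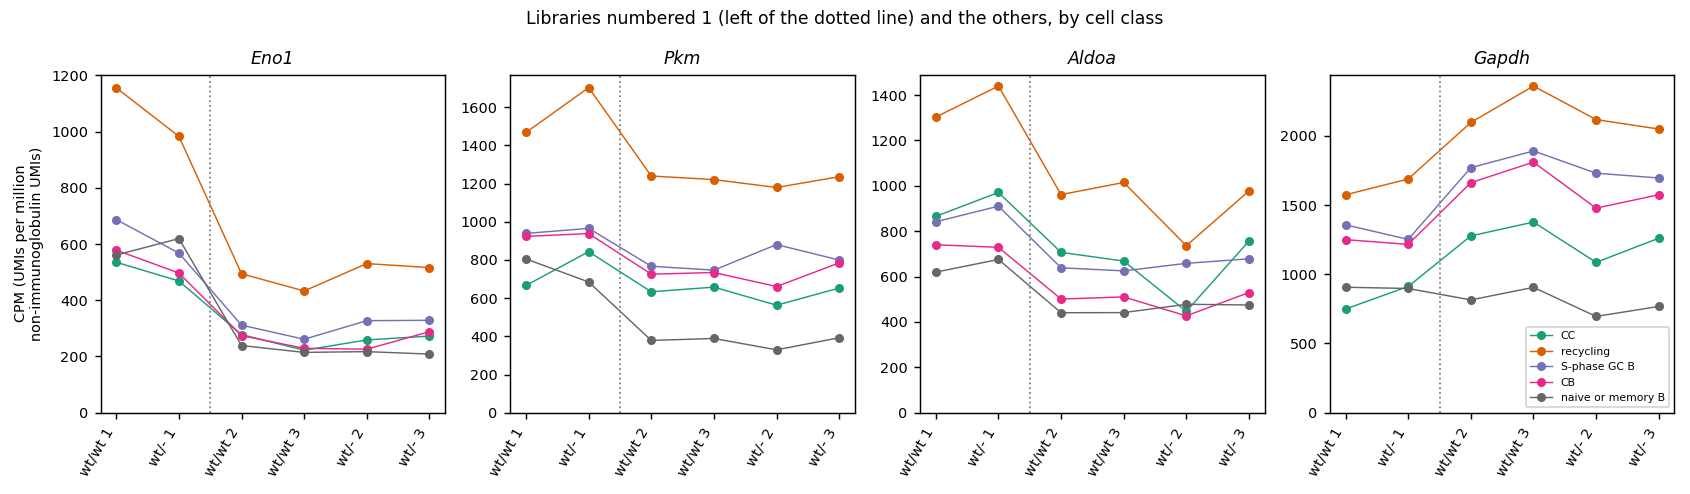
CPM of *Eno1*, *Pkm*, *Aldoa* and *Gapdh* (linear axes from 0) is plotted by library for 5 B-cell classes, with the replicates numbered 1 left of a dotted line and lines joining the libraries of a class. In CC-like cells *Eno1* is at 535 and 469 CPM left of the line and at 222 to 278 CPM right of it, while *Gapdh* is lower on the left.

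The genotype comparison asked whether these transcripts differed between the *Smc3* genotypes within a class, and no member passed in any class. It was made in the 7 classes with at least 20 cells in every library and in PB-like cells alone, with 3 libraries per genotype. Cγ1-Cre is not expected to act in T cells or naive B-cells, so in those cells the comparison is not one of *Smc3* dosage. Of the genes tested, 0% were called in each of the 8 comparisons, and 125 genes in CC-like, 174 in recycling-like, 179 in S-phase GC B-like, 201 in CB-like, 126 in naive or memory B-like, 153 in plasma-lineage, 81 in T cell-like and 290 in PB-like cells had an unadjusted p under 0.05, with no member among them. DESeq2 called 1 gene in S-phase GC B-like and 1 in PB-like cells, neither a member, and 0 elsewhere. The unadjusted p of DESeq2 was under 0.05 for 23 to 184 genes per class. *Hk2* was not tested in naive or memory B-like and T cell-like cells, nor *Slc2a1* in T cell-like cells, since their counts were too low.

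In the GC B-cell classes all member values lay between -0.48 and 0.41. The lowest member in CC-like cells was Hk2 at -0.48 ± 0.29, and the highest was Slc2a1 at 0.30 ± 0.38 (SE). For Hk2 the groups did not overlap, at 18.3, 18.8 and 18.5 against 12.5, 17.1 and 12.8 CPM in CC-like cells, as for 7.39% of all genes there. In S-phase GC B-like cells Hk2 at -0.38 ± 0.26 was again lower without overlap, with 11.8, 7.56 and 7.10 against 5.63, 4.76 and 6.95 CPM. Ldha at 0.11 ± 0.16 was higher without overlap, with 814, 842 and 777 against 843, 879.7 and 854 CPM, and Pkm at 0.14 ± 0.15 had the highest fold change, where 7.5% of genes did not overlap. In recycling-like cells the extremes were Slc2a1 at 0.41 ± 0.26 and Hk2 at -0.36 ± 0.25, and in CB-like cells Hk2 at 0.11 ± 0.27 and Tpi1 at -0.16 ± 0.17, with all members overlapping, beside 7.92% and 8.65% of genes that did not. Naive or memory B-like cells ran from -0.13 ± 0.18 for Gapdh to 0.15 ± 0.18 for Aldoa, where 5.76% of genes did not overlap. The member medians were 0.01 in CC-like, -0.04 in recycling-like, 0.05 in S-phase GC B-like, -0.03 in CB-like and -0.06 in naive or memory B-like cells. Without *Smc3* wt/- replicate 2 the median in S-phase GC B-like cells was -0.04, with Ldha at 0.04 ± 0.16 and Hk2 at -0.31 ± 0.24, and in CC-like cells Hk2 stood at -0.58 ± 0.28 and Slc2a1 at 0.10 ± 0.35. In all, 15 of 77 member values changed sign without that library.

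In the plasma lineage all 10 members had a negative value, with a median of -0.46, from -0.67 ± 0.67 for Eno1 to -0.14 ± 0.24 for Aldoa, and the lowest adjusted p was 0.91. The median of all 6000 genes tested was 0.03, and 6.17% of them did not overlap, with no member among these. *Smc3* wt/- replicate 2 held 1643 of the plasma-lineage cells against 34 to 84 in each other library, 1316 of them PC-like. Without it 8 members were negative, with a median of -0.18 and Eno1 at -0.19 ± 0.43. Without *Smc3* wt/- replicate 1 the median was instead -0.66 and the lowest value -1.58. Y-linked transcripts marked 2 of the 3 *Smc3* wt/wt libraries (replicates 1 and 2) but 1 of the 3 *Smc3* wt/- libraries (replicate 2). Sex was thus unequal between the genotypes, and with sex as a covariate the median was -0.71 and the lowest value -1.30. PB-like cells alone gave 10 negative values with a median of -0.37, from -0.64 ± 0.54 for Eno1 to -0.13 ± 0.22 for Aldoa, and an adjusted p of at least 0.83, where 9.41% of genes did not overlap. *Smc3* wt/- replicate 2 stood apart there too, with 42.2% of its PB-like UMIs from immunoglobulin genes against 11.1 to 16.1% in the other libraries. Without replicate 2 the PB-like median was -0.20 and the values ran from -0.71 to -0.0024, while the lowest value was -1.38 without replicate 1 and -1.01 with sex as a covariate. In T cell-like cells 7 of 8 tested members were positive, but 1 of 8 with doublets kept (median 0.13 and -0.14) and 5 of 8 without *Smc3* wt/- replicate 2, with Aldoa at 0.33 ± 0.24 and Tpi1 at -0.27 ± 0.33 as the extremes over all 6 libraries. Pgk1 at 0.28 ± 0.24 was the member without overlap, with 229, 194 and 227 against 241, 324 and 233 CPM, as were 6.77% of genes. Myeloid-like and PC-like cells had too few cells in some libraries for this test.

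**Figure D5:**
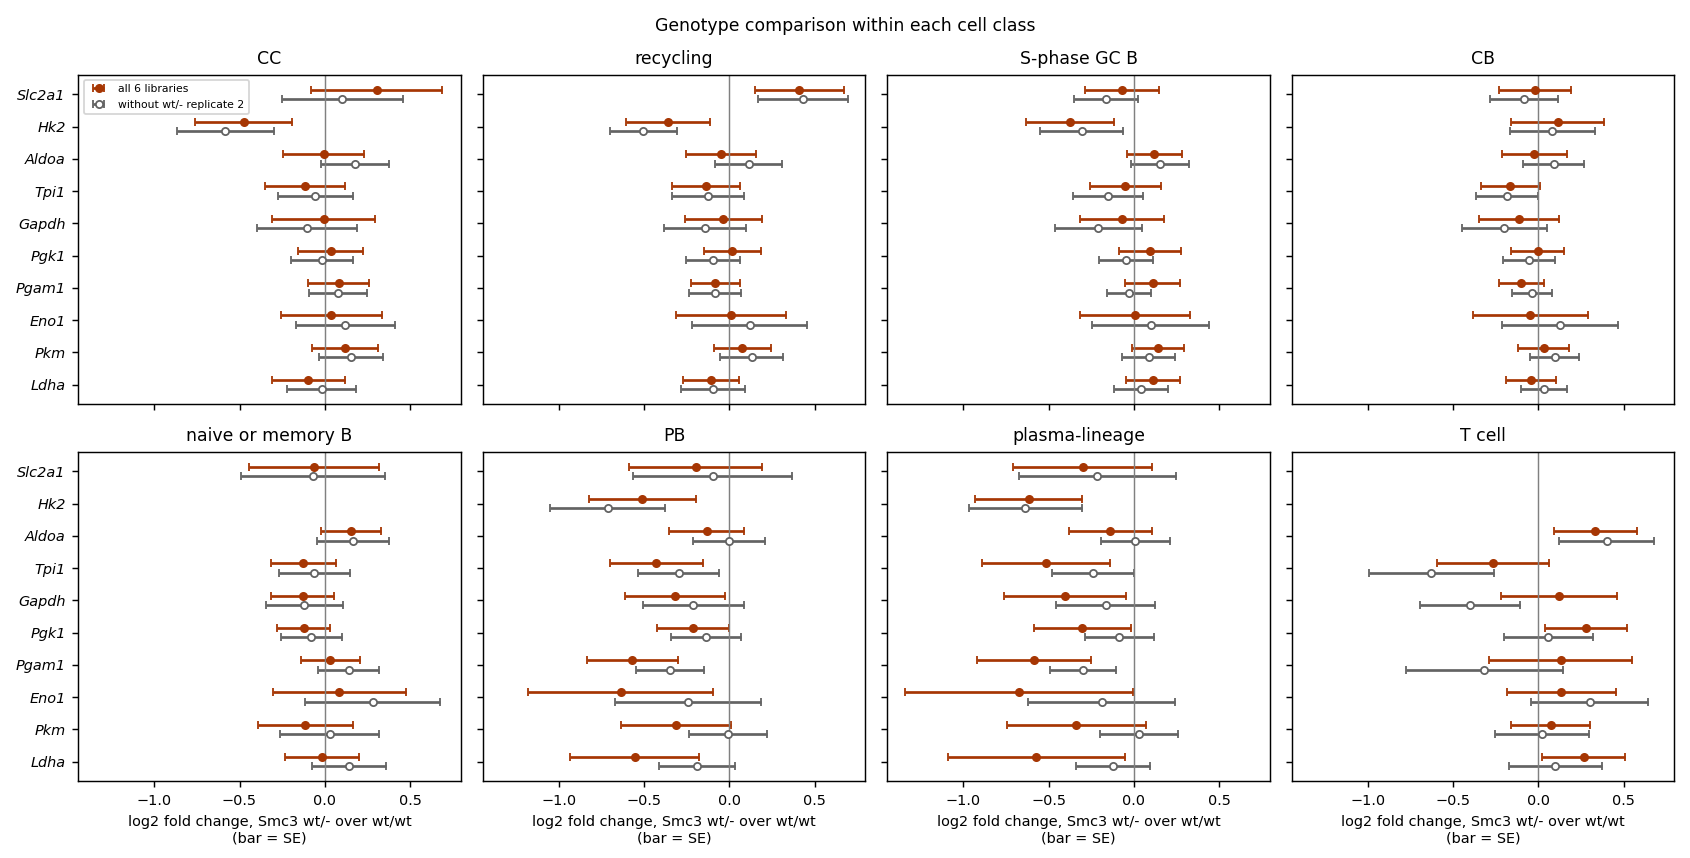
Log2 fold changes of *Smc3* wt/- over *Smc3* wt/wt, with bars of 1 SE, are plotted for the members in 8 cell classes, filled for all 6 libraries and open without *Smc3* wt/- replicate 2. Filled GC B-cell points lie between -0.48 (Hk2) and 0.41 (Slc2a1), and the filled plasma-lineage points all lie left of 0, with a median of -0.46 that is -0.18 for the open points.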

How the data were processed

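Splenic cells of 3 *Smc3* wt/wt and 3 *Smc3* wt/- samples were profiled with 10x 3′ v2 chemistry. The deposited counts were UMIs per gene and cell, made by the authors with Cell Ranger 3.0.2 (file header) on mm10 (labels); the submitters' notes also name R 4.0.2 and Seurat 4.0.0. Cells with at least 500 genes and at most 10% mitochondrial UMIs were kept (21568), and 759 doublets (3.52%) predicted by Scrublet in scanpy 1.11.5 at a rate set by the number of barcodes, were removed. Seurat 5.3.0 (R 4.3.3) clustered the cells on 1875 variable genes, with 30 components, at resolution 0.5. Clusters were named by marker scores, under a rule written after the clusters were seen: those led by haemoglobin genes stayed unnamed, those with *Cd79a* at most 25% of the median over clusters were not B-cells, and plasma-lineage clusters with *Mki67* at 20% of the median or more were PB-like.

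UMIs were summed per class and library, and 392 immunoglobulin genes were left out. edgeR 4.0.16 (TMM, filterByExpr, quasi-likelihood test) was used, with no covariate for genotype in classes of at least 20 cells per library, and with library as a block for class contrasts in sums of at least 10 cells. Adjusted p-values are Benjamini-Hochberg over all genes tested. PB-like and PC-like cells against CC-like cells, and genotype in PB-like cells, were chosen after seeing the data. Counting error limits each value, and floors of 3 counts cover that error only. The scripts were tested on simulated data. In the genotype test of CB-like cells, 94 of 200 genes with a log2 change of 1 were recovered, with 11 false calls. At a log2 change of 2, 186 were recovered, with 25 false calls. A lack of calls for genotype thus does not exclude a change of 1. Alternatives were DESeq2 1.42.0, its size factors, no low-count filter, immunoglobulin genes or doublets kept, resolution 1, no library block, sex read from Y-linked UMIs, the replicate block, thinning and leaving out each library.

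The members and lists were chosen with earlier results of these data known. All 10 members were named. Of other pathway genes, up to 2 rises and 2 falls per list and contrast were named, and in some contrasts calls gained without *Smc3* wt/- replicate 2. For genotype, members past the threshold or without overlap and the extremes of a class were named. No columns of per-sample values were left unassigned. The study integrated further wild-type libraries, which are not analysed here.

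Libraries share the replicate numbers 1 to 3 across genotypes. Deviations from the group means correlated above 0.1 for every number in S-phase GC B-like (0.253, 0.128 and 0.177), CB-like, naive or memory B-like, plasma-lineage and PB-like cells, but not in CC-like, recycling-like or T cell-like cells; the labels do not say what a number marks.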

Additional observations from a re-analysis of the deposited data

Results flagged for a closer look

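Of 100 sets of 6 libraries (10 members in 9 classes and the plasma lineage), 13 held a library whose gap to the others exceeded Dixon's 95% critical value, which chance alone passes in about 1 set in 20, and 9 of the 13 were *Smc3* wt/- replicate 2. That library was low for *Ldha* in CC-like cells (753.7 CPM, others 1042.4 to 1131.4), CB-like cells (533.4 CPM, others 669.9 to 718.1), PB-like cells (251.1 CPM, others 881.6 to 1189.7) and the plasma lineage (114.1 CPM, others 840.7 to 1080.9). It was also low for *Pgam1* in CB-like cells (188.4 CPM, others 237.8 to 254.6) and, in the plasma lineage, for *Pgk1* (135.8 CPM, others 345.4 to 439.0) and *Pkm* (259.1 CPM, others 1068.4 to 1510.3). In S-phase GC B-like cells it was instead high for *Pgam1* (321.4 CPM, others 265.8 to 278.1), and in T cell-like cells for *Pgk1* (323.7 CPM, others 193.8 to 241.2). *Smc3* wt/- replicate 1 was high for *Pkm* in CC-like cells (843.6 CPM, others 563.2 to 666.6) and for *Aldoa* in T cell-like cells (996.6 CPM, others 510.8 to 627.3). *Smc3* wt/- replicate 3 was low for *Tpi1* in T cell-like cells (51.1 CPM, others 101.6 to 118.9), and *Smc3* wt/wt replicate 1 was high for *Eno1* in myeloid-like cells (692.2 CPM, others 167.4 to 306.6).

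*Pgam1* was higher in plasma-lineage than in CC-like cells in all 3 *Smc3* wt/wt libraries, by 22.3 CPM on average, and lower in all 3 *Smc3* wt/- libraries. This opposition of the groups was 1 of 100 such comparisons made, and the difference was not tested.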

How the results depend on the processing

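The rise of 9 members in recycling-like cells and in PB-like over PC-like cells, and the fall of 8 in PC-like cells, kept their counts within 1.5 times under every alternative run, and no member was called for genotype under any. Without a library block no member was called higher in S-phase GC B-like or CB-like cells (0 each), and 1281 genes were called in the S-phase contrast; with doublets kept 0 members rose in CB-like and 2 fell in T cell-like cells; with DESeq2 or its size factors 1 member rose in T cell-like cells. Leaving out 1 library in turn gave 0 to 5 members higher, 1 to 2 lower and 1490 to 3712 genes called in S-phase GC B-like cells, 0 to 3 higher and 1 to 3 lower in CB-like, 3 to 8 lower in naive or memory B-like, 4 to 7 lower in T cell-like, 0 to 1 higher in myeloid-like, and 3266 to 5024 genes called in PC-like cells. Genotype calls rose without the low-count filter, to 21 genes in CC-like, 21 in recycling-like, 12 in naive or memory B-like, 31 in plasma-lineage, 3 in T cell-like and 121 in PB-like cells; sex as a covariate gave 2 in recycling-like, and DESeq2 1 in S-phase GC B-like and 1 in PB-like cells. The cause of these changes was not tested.

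Values that changed sign were all of members not called, and for genotype those of the members singled out in each class are given one by one. With no filter they were Aldoa in S-phase (0.056) and Tpi1 in PB-like cells (0.0037); with immunoglobulin genes kept Aldoa in S-phase (0.030) and Slc2a1 in PC-like cells (-0.0084), which was also negative without the filter (-0.068), with DESeq2's size factors (-0.0069), with doublets kept (-0.14) and at resolution 1 (-0.14). With doublets kept they were Aldoa in S-phase (0.083), Eno1 (-0.11) and Tpi1 (-0.13) in CB-like cells, Pgk1 in T cell-like cells (0.056) and Pgk1 for genotype there (-0.043). At resolution 1 they were Eno1 in CB-like (-0.062) and myeloid-like (-0.045), Slc2a1 in T cell-like (-0.0043), Aldoa in plasma-lineage (-0.12) and PB-like (-0.17) cells and Slc2a1 for genotype in CC-like cells (-0.043). DESeq2 gave Aldoa -0.0059 in plasma-lineage and -0.13 in PB-like and Pgam1 -0.057 in PB-like cells, and its size factors in edgeR Pgam1 -0.0087 in plasma-lineage and -0.066 in PB-like and Aldoa -0.12 in PB-like cells. Without a library block Tpi1 in PB-like (0.014), Hk2 in PC-like (0.10) and Eno1 in myeloid-like cells (-0.20) turned. Leaving out 1 library in turn gave Aldoa -0.13 to 0.015 in S-phase; Eno1 -0.042 to 0.058 and Tpi1 -0.059 to 0.096 in CB-like; Tpi1 -0.19 to 0.021, Ldha -0.24 to 0.051 and Pgam1 -0.035 to 0.20 in plasma-lineage; Tpi1 -0.070 to 0.11, Ldha -0.16 to 0.16, Aldoa -0.016 to 0.11 and Pgam1 -0.0002 to 0.30 in PB-like; Slc2a1 -0.14 to 0.38 and Hk2 -0.76 to 0.023 in PC-like; Slc2a1 -0.41 to 0.58 in T cell-like and Eno1 -0.43 to 0.25 in myeloid-like cells; and for genotype Hk2 -0.031 to 0.29 in CB-like, Aldoa -0.30 to 0.0085 in plasma-lineage and Eno1 -1.38 to 0 in PB-like cells. Over all member values for genotype, 6 to 15 turned on leaving out a library, 11 of 77 with doublets kept (6 of them in T cell-like cells), 3 each with the replicate block, resolution 1 and sex as a covariate, and 2 each with DESeq2 and without the filter. Pkm in plasma-lineage cells turned to 0.030 without *Smc3* wt/- replicate 2.

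Size factors of DESeq2 moved the median of all genes by more than 0.1 in PB-like over CC-like cells (from -0.04 to -0.19 in edgeR), PB-like over PC-like (from 0.04 to -0.13) and T cell-like cells (from -0.08 to 0.04). With the replicate block no member was called (0 in each class) and no other call changed; the member median was then -0.52 in plasma-lineage (lowest adjusted p 0.796, edgeR) and -0.41 in PB-like cells (0.567). Of 90 mean levels, 7 moved by more than 1 SD over all UMIs and 22 after thinning. Myeloid-like and PC-like sums of 10 to 27 cells outside *Smc3* wt/- replicate 2 limit what can be seen there.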
